A study of Mus musculus with 11 samples.

Results

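Cell cycle and DNA replication genes were followed through 3 lists of open chromatin in mouse alveolar macrophages. The set holds 48 named genes, out of 21887 protein-coding genes in the annotation, placed in 7 roles from the G1 cyclins to the mitotic kinases. A boundary peak was counted where a listed peak lay no more than 1000 bp from one of the gene's ends in the RefSeq annotation of GRCm38.p6, the same build as mm10. By this measure 28 of the 48 genes had a boundary peak at day 15, 12 had one at day 30 and 30 had one in naive lungs. Boundary peaks were found at 29.6%, 12.8% and 34.7% of all protein-coding genes in those lists. For Cdk6, Orc1 and Orc4 a listed RefSeq start site lies inside the gene's outer ends and had a peak that this measure leaves out. With listed start sites counted as well, 31 genes of the set had a peak at day 15, 13 at day 30 and 33 in the naive list. This measure was added after the data were seen. By it, 6981 of all 21887 genes had a peak at day 15 and 8196 in the naive list. Of those 8196 genes, 2980 also had one at day 30.

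The macrophages were sorted from the lungs of C57BL/6 mice and profiled by ATAC-seq, in which a transposase cuts and tags accessible DNA. The KP day 15 group (4 samples) and the KP day 30 group (3 samples) came from mice given KP or KP-GFP tumour cells through the tail vein, with lungs taken 15 or 30 days later, and the naive group (4 samples) came from wild-type mice without tumour cells. The labels give no age, no alleles of the KP line and no account of which mice received the GFP line. The tumours of this model grew from injected cells and not from the lung of the mouse itself. Every group had 1 peak list for all of its samples, so no value has a replicate error and no difference between groups could be tested.

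The lists held 10861 peaks at day 15, 3352 at day 30 and 14731 in naive macrophages. Depth, read from the lowest background behind the peaks, was 93.5 tags per 10 kb at day 15, 82.2 at day 30 and 39.2 in the naive list, so the lists with fewer peaks were 2.38 and 2.1 times deeper. How depth bears on the number of peaks was not tested. Of 16 alveolar macrophage markers, 5 had a boundary peak at day 15, 1 at day 30 and 8 in the naive list. Over all protein-coding genes the shares were 29.6%, 12.8% and 34.7%. In at least 1 list 9 of the 16 markers had a peak, and 7 had none in any list, among them Siglecf, Fabp4, Car4 and Marco. Of 10 general macrophage and myeloid markers the counts were 6, 2 and 7. None of the 10 epithelial and lung tumour markers and none of the 6 B cell markers had one in any list. Among 10 T and NK cell markers the counts were 1, 0 and 1, all at Cd3d, and among 6 neutrophil markers 1, 1 and 1, all at S100a8.

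Progress through the cell cycle is driven by cyclins bound to cyclin-dependent kinases. Before S phase, E2F transcription factors held in check by the retinoblastoma protein control genes for origin licensing and nucleotide supply, while many genes of mitosis are controlled through a promoter element called CHR, often with CCAAT boxes nearby. In resting cells the DREAM complex binds both kinds of promoter. Alveolar macrophages are long-lived cells that can maintain their numbers by dividing in the lung.

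Promoter sequences of 9 genes show the elements on which these promoters are built. They are RefSeq windows of GRCm38.p6 from 250 bases before to 50 after a start site, printed 5′ to 3′ on the strand of the gene. Capitals mark matches, on either strand, to the E2F words TTTGGCGC, TTTCCCGC, TTTGCCGC and TTTCGCGC, the CHR word TTTGAA, the CCAAT box CCAAT and the GC box GGGCGG. The first 3 belong to genes with a peak over the promoter in every list: Ccne1 (chr7:38107441-38107740, minus strand), Cdkn1b (chr6:134920151-134920450, plus strand) and Cdkn2c (chr4:109666707-109667006, minus strand).
Ccne1: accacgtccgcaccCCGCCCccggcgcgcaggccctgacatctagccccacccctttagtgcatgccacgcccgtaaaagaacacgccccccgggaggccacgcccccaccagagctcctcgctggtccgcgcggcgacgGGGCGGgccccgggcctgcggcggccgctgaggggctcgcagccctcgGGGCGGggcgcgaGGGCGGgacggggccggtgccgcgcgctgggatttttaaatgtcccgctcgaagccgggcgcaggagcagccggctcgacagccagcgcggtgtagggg
Cdkn1b: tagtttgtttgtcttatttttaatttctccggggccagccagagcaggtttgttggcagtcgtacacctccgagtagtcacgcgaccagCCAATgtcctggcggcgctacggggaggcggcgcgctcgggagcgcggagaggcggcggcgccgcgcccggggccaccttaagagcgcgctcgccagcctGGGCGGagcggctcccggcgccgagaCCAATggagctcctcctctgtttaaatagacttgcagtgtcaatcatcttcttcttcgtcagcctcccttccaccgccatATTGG
Cdkn2c: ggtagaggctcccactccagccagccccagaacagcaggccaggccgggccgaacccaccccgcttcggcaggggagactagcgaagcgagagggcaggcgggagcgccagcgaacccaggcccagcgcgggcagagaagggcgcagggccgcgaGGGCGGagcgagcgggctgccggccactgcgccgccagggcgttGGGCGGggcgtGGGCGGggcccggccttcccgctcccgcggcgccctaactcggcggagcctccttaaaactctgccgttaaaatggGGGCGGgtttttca

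The next 3 had a peak over the promoter at day 15 and in the naive list but not at day 30: Cdk4 (chr10:127063285-127063584, plus strand), Cdc25a (chr9:109875329-109875628, plus strand) and Mcm3 (chr1:20820263-20820562, minus strand). Mcm3 carries a pair of E2F words just after its start site.
Cdk4: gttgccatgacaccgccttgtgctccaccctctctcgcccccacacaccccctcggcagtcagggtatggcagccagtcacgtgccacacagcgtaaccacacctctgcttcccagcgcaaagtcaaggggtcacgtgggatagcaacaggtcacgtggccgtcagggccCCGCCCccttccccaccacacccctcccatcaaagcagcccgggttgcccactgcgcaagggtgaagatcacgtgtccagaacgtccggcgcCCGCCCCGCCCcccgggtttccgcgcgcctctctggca
Cdc25a: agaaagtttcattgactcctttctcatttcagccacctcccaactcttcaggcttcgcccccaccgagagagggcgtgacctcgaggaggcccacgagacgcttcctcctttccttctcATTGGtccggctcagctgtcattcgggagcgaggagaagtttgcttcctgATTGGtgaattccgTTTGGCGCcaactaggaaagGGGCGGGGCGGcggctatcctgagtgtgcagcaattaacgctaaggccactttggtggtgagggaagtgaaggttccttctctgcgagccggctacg
Mcm3: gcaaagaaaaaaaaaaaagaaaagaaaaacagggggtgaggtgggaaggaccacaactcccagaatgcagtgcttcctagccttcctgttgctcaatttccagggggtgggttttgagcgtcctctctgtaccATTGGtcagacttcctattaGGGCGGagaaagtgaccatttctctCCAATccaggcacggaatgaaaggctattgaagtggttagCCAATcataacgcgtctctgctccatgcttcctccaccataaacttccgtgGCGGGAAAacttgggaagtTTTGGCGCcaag

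Birc5 (chr11:117848987-117849286, plus strand) had a promoter peak at day 15 only. Cdk1 (chr10:69352863-69353162, minus strand) and Top2a (chr11:99024140-99024439, minus strand) were added after their values were seen, because they show the CHR and CCAAT arrangement of genes for mitosis.
Birc5: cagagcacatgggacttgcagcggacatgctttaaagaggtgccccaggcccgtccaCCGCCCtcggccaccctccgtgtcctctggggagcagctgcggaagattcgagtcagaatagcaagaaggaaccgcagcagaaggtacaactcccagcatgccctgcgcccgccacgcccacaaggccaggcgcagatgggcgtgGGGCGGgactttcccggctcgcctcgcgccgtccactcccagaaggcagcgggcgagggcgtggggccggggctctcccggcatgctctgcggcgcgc
Cdk1: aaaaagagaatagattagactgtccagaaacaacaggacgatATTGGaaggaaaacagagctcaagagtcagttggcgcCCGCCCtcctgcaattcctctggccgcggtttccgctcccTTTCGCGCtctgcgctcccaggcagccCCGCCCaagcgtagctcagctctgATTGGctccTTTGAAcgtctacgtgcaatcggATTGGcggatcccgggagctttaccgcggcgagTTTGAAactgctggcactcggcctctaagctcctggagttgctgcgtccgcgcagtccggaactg
Top2a: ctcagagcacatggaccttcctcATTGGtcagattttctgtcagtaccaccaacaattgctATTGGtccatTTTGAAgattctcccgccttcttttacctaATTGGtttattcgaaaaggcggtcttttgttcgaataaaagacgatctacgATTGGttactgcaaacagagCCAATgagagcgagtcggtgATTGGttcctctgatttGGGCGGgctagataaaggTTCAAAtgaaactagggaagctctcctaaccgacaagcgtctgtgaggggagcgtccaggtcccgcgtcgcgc

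**Figure D1:**
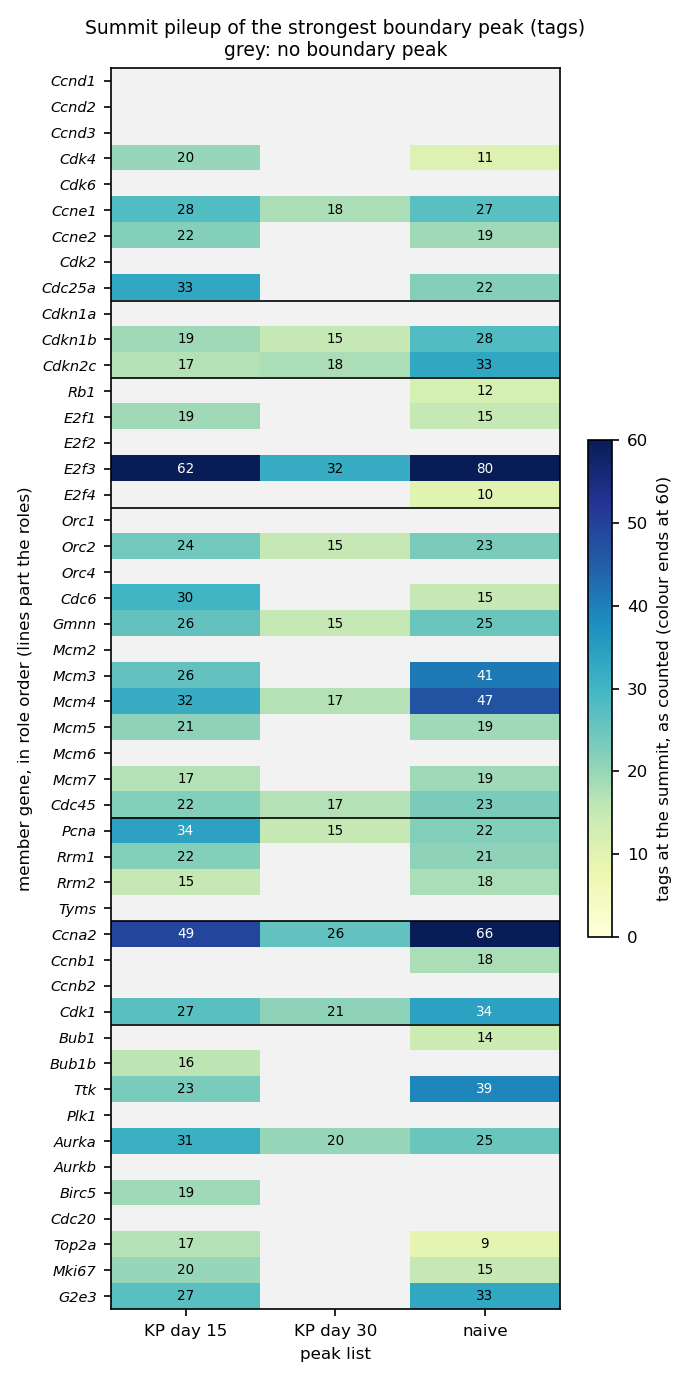
Summit pileup, in tags as counted by the peak caller and not scaled for depth, of the strongest boundary peak of each of the 48 genes (rows, grouped by role) in the day 15, day 30 and naive lists (columns). Grey cells have no boundary peak: 28 cells are filled at day 15, 12 at day 30 and 30 in the naive list.

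The G1 cyclins and their kinases, which bring cells to the start of S phase, had 4 of 9 genes with a boundary peak at day 15, 1 at day 30 and 4 in the naive list. Ccne1, which encodes cyclin E1, the partner of Cdk2 at the start of S phase, had a summit pileup, the number of sequenced tags stacked at the top of its peak, of 28 tags at day 15, 18 at day 30 and 27 in the naive list. Its peaks overlapped in every list, with the day 15 peak at chr7:38107373-38108116. Cdc25a, which encodes a phosphatase that activates cyclin-dependent kinases, had 33 tags at day 15, no boundary peak at day 30 and 22 tags in the naive list. Cdk4, the kinase of the D-type cyclins, had 20 tags at day 15, none called at day 30 and 11 in the naive list. Ccne2, which encodes cyclin E2, had 22 tags at day 15, none called at day 30 and 19 in the naive list. These 4 genes thus stood together at day 15 and in the naive list, and Ccne1 alone among them was still called at day 30. Ccnd1, Ccnd2, Ccnd3, Cdk6 and Cdk2 had no boundary peak in any list, so none of the D-type cyclins had one. Cdk6, the other kinase of the D-type cyclins, had a peak next to its listed start site, 123 bp away with 19 tags at day 15 and 192 bp away with 17 tags in the naive list, and none there at day 30.

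Among the inhibitors of cyclin-dependent kinases, Cdkn1b and Cdkn2c had a boundary peak in every list and Cdkn1a had one in none. Cdkn1b, which encodes p27, had 19 tags at day 15, 15 at day 30 and 28 in the naive list. Cdkn2c, which encodes the Cdk4 and Cdk6 inhibitor p18, had 17 tags at day 15, 18 at day 30 and 33 in the naive list. At both genes the naive list had the most tags although it was the shallowest.

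Of Rb1 and the E2F genes, 2 of 5 had a boundary peak at day 15, 1 at day 30 and 4 in the naive list. E2f3, an activating E2F, carried the most tags of any gene of the set in every list, with 62 at day 15, 32 at day 30 and 80 in the naive list. E2f1 had 19 tags at day 15, none called at day 30 and 15 in the naive list. Rb1, the retinoblastoma gene that restrains the E2F factors, and E2f4, the E2F of resting cells, were called in the naive list only, with 12 and 10 tags. The E2f4 peak (chr8:105297543-105297812) was also within reach of Exoc3l. E2f2 had no boundary peak.

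Origin licensing loads the MCM helicase onto DNA, and this was the largest role. It had 8 of 12 genes called at day 15, 4 at day 30 and 8 in the naive list, and the 8 at day 15 were the 8 of the naive list. Mcm4, a helicase subunit, had 32 tags at day 15, 17 at day 30 and 47 in the naive list, over a peak that also covers the end of Prkdc. Mcm3, another subunit, had 26 tags at day 15, no peak at day 30 and 41 in the naive list. Cdc6, which loads the helicase, had 30 tags at day 15, none called at day 30 and 15 in the naive list. At the naive depth the day 15 values were 13.4 tags for Mcm4, 10.9 for Mcm3 and 12.6 for Cdc6, so Cdc6 exceeded its naive tags only before depth was scaled.

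Orc2, a subunit of the origin recognition complex, had 24 tags at day 15, 15 at day 30 and 23 in the naive list. Gmnn, which encodes the licensing inhibitor geminin, had 26 tags at day 15, 15 at day 30 and 25 in the naive list. Its day 30 peak (chr13:24761855-24762054) lay beside the day 15 peak (chr13:24761376-24761696) without overlap. The naive list had a peak at each place, with 25 tags at the day 15 place and 13 at the day 30 place. Cdc45, part of the active helicase, had 22 tags at day 15, 17 at day 30 and 23 in the naive list. In both tumour lists that peak was nearer to Ufd1, and in the naive list it reached both genes. Mcm5 had 21 tags at day 15 and 19 in the naive list, Mcm7 had 17 and 19, and neither was called at day 30. Mcm7 had 2 boundary peaks at day 15 and 2 in the naive list, all within reach of Ap4m1 as well. Both Mcm7 peaks at day 15 had 17 tags, and the stronger by p was nearest to Ap4m1. Scaled to the naive depth, the day 15 values of Mcm5 and Mcm7 were 8.81 and 7.13 tags. Orc1, Orc4, Mcm2 and Mcm6 had no boundary peak in any list. Orc4, another subunit of the origin recognition complex, had a peak over a listed start site with 34 tags at day 15, 18 at day 30 and 38 in the naive list. At Orc1, a further subunit, a peak by the listed start site had 14 tags at day 15 and 28 in the naive list, and none was called there at day 30.

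At the replication fork, Pcna, the sliding clamp of the DNA polymerases, had 34 tags at day 15, 15 at day 30 and 22 in the naive list, over a start site shared with Cds2. Rrm1 and Rrm2 encode the subunits of ribonucleotide reductase, which makes deoxyribonucleotides. Rrm1 had 22 tags at day 15 and 21 in the naive list, Rrm2 had 15 and 18, and neither was called at day 30. Tyms, the thymidylate synthase gene, had no boundary peak.

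Of the cyclins and the kinase of S and M phase, Ccna2 and Cdk1 were called in every list, Ccnb1 in the naive list only and Ccnb2 in none. Ccna2, which encodes cyclin A2, had 49 tags at day 15, 26 at day 30 and 66 in the naive list, second in the set to E2f3 in every list. Its peak (chr3:36571891-36572405 at day 15) lay inside the gene, 633 bp from the nearer end at day 15, and within reach of Bbs7 as well. Cdk1, the kinase of mitotic entry, had 27 tags at day 15, 21 at day 30 and 34 in the naive list. Ccnb1, which encodes cyclin B1, had 18 tags in the naive list, with an exact 95% Poisson interval of 10.7 to 28.4 that covers counting error only, and its promoter had no peak in either tumour list.

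The mitotic kinases, checkpoint and chromosome factors had 7 of 11 genes called at day 15, 1 at day 30 and 6 in the naive list. Aurka, the Aurora A kinase gene, was the 1 called at day 30, with 31 tags at day 15, 20 at day 30 and 25 in the naive list, over a start site shared with Cstf1. Ttk, a kinase of the spindle checkpoint, had 23 tags at day 15, none called at day 30 and 39 in the naive list. Top2a, the topoisomerase of dividing cells, had 17 tags at day 15, none called at day 30 and 9 in the naive list. Mki67, the proliferation marker Ki-67, had 20 tags at day 15, none called at day 30 and 15 in the naive list. As counted, Top2a and Mki67 had more tags at day 15 than in the naive list. At the naive depth they had fewer, with 7.13 and 8.39 tags. The day 15 Mki67 peak with 20 tags did not overlap the naive peak. The day 15 Mki67 peak that did overlap it had 16 tags, or 6.71 at the naive depth. Ttk had fewer tags by both measures, with 9.65 at the naive depth.

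Birc5, which encodes survivin, and Bub1b, a spindle checkpoint gene, were called at day 15 only. Birc5 had 19 tags (chr11:117849033-117849297) and Bub1b 16 tags (chr2:118597674-118597924). Scaled to the naive depth these were 7.97 tags for Birc5, with a counting interval of 4.8 to 12.4, and 6.71 for Bub1b, with an interval of 3.84 to 10.9, and no naive peak had a pileup under 6 tags. Bub1, the checkpoint partner of Bub1b, was called in the naive list only, with 14 tags. G2e3 was called at day 15 through a peak with 27 tags that is nearest to Scfd1, while its own start site had a peak with 24 tags in the naive list only. Plk1, Aurkb and Cdc20 had no boundary peak in any list.

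**Figure D2:**
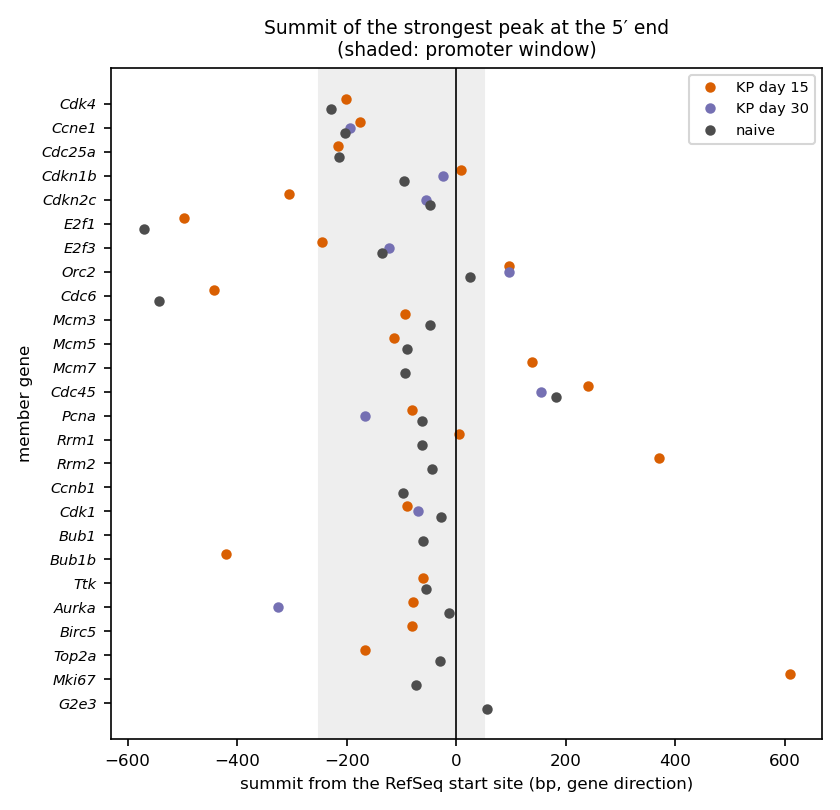
Distance in bp, in the direction of the gene, from the listed RefSeq start site to the summit of the strongest peak at the 5′ end of each gene (rows) with a promoter entry. Day 15, day 30 and naive summits have medians of -90 bp (23 genes), -70 bp (9 genes) and -62.5 bp (24 genes), and the shaded band is the promoter window.

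Most peaks of genes with a known strand lay at the 5′ end. Among these genes, 23 genes at day 15, 9 at day 30 and 24 in the naive list had a peak at the 5′ end, and 1, 0 and 1 had one at the 3′ end, in each case G2e3. For 4 genes at day 15, 3 at day 30 and 6 in the naive list the strand was not in the table. Summits of the strongest 5′ peaks lay within 250 bp of the listed start site in 17 of 23 genes at day 15, 8 of 9 at day 30 and 22 of 24 in the naive list. The plot of summit positions shows Cdc6 and E2f1 farther upstream, at -442 and -498 bp at day 15 and at -542 and -571 bp in the naive list. At Mki67 the strongest day 15 peak lay 609 bp past the start site, beside a second peak with 16 tags and a summit at -136 bp, while the naive summit was at -73 bp.

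At day 15, most of the set was called as in naive macrophages. Kept here means called in both lists, lost called in the naive list only and gained called in the tumour list only. From the 30 genes called in the naive list, 26 were kept, where 79.6% of all such genes were, and 4, Rb1, E2f4, Ccnb1 and Bub1, were lost, beside 20.4%. Birc5 and Bub1b were gained, 2 of 18 genes without a naive boundary peak, beside 3.04% over all genes. The naive peaks of the set had a median −log10 p, the peak caller's measure of enrichment over background, of 18.9, beside 15.2 over all 7594 genes with one. All genes were divided into 5 equal bins by this naive value, from bin 1, the weakest, to bin 5. With the kept share of each bin applied to the 30 genes, 25.4 kept genes were expected, beside the 26 found. All 26 kept genes had overlapping peaks in the 2 lists.

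The 4 lost genes differed in naive strength. Rb1 and E2f4 were in bin 1, where 45.2% of all genes were kept, and Bub1 was in bin 2, where 69.0% were. Ccnb1 had a naive −log10 p of 18.9 and lay in bin 4, where 96.8% of all genes were kept and 8 of the 9 genes of the set.

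**Figure D3:**
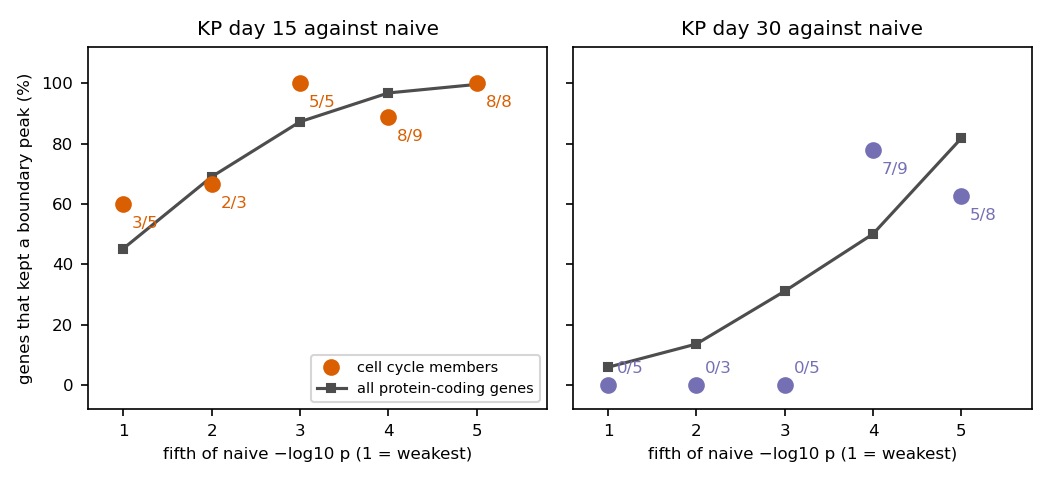
Share of genes with a naive boundary peak that also had one at day 15 (left) or day 30 (right), in 5 bins of the naive −log10 p. Grey squares are all protein-coding genes and coloured circles the cell cycle genes, with kept over total beside them: 8 of 8 in the strongest bin at day 15, and 5 of 8 at day 30.

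At day 30, 12 of the same 30 genes were kept, 18 were lost and 0 were gained. Over all genes 36.5% were kept, 63.5% were lost and 0.245% of those without a naive peak were gained. The 12 kept genes were Ccne1, Cdkn1b, Cdkn2c, E2f3, Orc2, Gmnn, Mcm4, Cdc45, Pcna, Ccna2, Cdk1 and Aurka, and all 12 also had a peak at day 15. At equal naive strength 13.3 kept genes were expected. In bins 1, 2 and 3, with 5, 3 and 5 genes, 0 were kept, beside 5.86%, 13.6% and 31.1% of all genes. In bin 4, 7 of 9 were kept, beside 50.0%, with Rrm1 and Ccnb1 lost.

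In bin 5, 5 of 8 were kept, beside 81.8% of all genes, and Mcm3, Ttk and G2e3 were lost. Mcm3 and Ttk had naive −log10 p values of 38.7 and 40.2. Both genes were called at day 15 with fewer tags than in the naive list. The naive G2e3 peak counted here was the one nearest to Scfd1.

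Between day 15 and day 30, 12 of 28 genes were kept, 16 were lost and 0 were gained. Over all genes 42.1% of those called at day 15 were kept, 57.9% were lost and 0.506% of the others were gained. At equal day 15 strength 13.4 kept genes were expected. Those lost included Cdc25a and Cdc6, which had 33 and 30 tags at day 15 and were in the strongest of 5 day 15 bins, where 87.0% of all genes were kept. Both genes gained at day 15, Birc5 and Bub1b, had no boundary peak at day 30. Of the 7 mitotic genes with a day 15 peak 1, Aurka, was kept, and of the 8 licensing genes 4 were. The 2 roles differed in day 15 strength. Bub1b was in bin 1 and Birc5, Top2a and Mki67 were in bin 2, where 11.0% and 18.2% of all genes were kept. Ttk was in bin 3, and Aurka and G2e3 were in bin 5. All licensing genes but Mcm7, in bin 1, were in bins 3 to 5. How strength bears on the 2 roles was not tested.

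**Figure D4:**
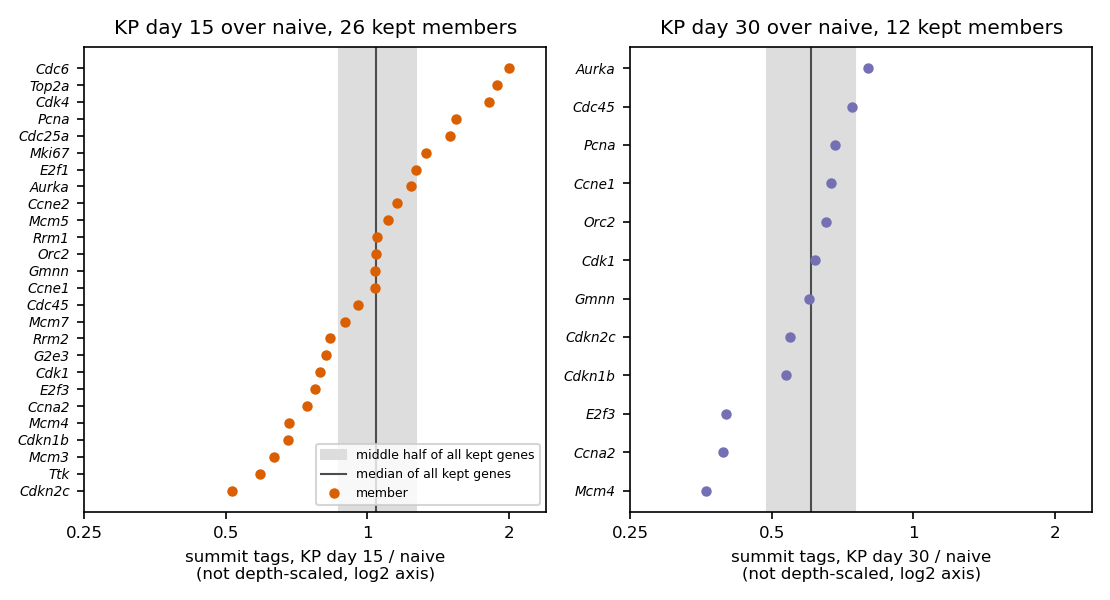
Summit tags over naive summit tags for each kept gene, at day 15 (left, 26 genes) and day 30 (right, 12 genes), on a log2 axis and not scaled for depth. Each value is from the strongest boundary peak of the gene in each list. These peaks did not overlap at Mki67 and Mcm7 for day 15 and at Gmnn for day 30. The line and band are the median and the middle 50% of all kept genes: 1.05 at day 15 and 0.607 at day 30, beside 1.04 and 0.609 for the genes of the set.

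Relative to the naive list, summit tags of the kept genes lay close to those of all kept genes. At day 15 the ratio to the naive tags had a median of 1.04 over the 26 genes of the set, from 0.515 to 2, and of 1.05 over all 6042 kept genes. At day 30 the median was 0.609 over 12 genes, from 0.362 to 0.8, and 0.607 over all 2769. Scaled to equal depth the day 15 median was 0.436 for the set and 0.439 for all genes, none of the 26 was above 1, and 0.43% of all kept genes were. The ratios at equal depth were thus below 1 over nearly all kept genes, in the set and outside it.

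Within the set the lowest day 15 ratios were those of Cdkn2c, Ttk, Mcm3 and Cdkn1b, and the highest those of Cdc6, Top2a, Cdk4, Pcna and Cdc25a. Cdkn2c had 0.515 times its naive tags, at percentile 1.69 of all kept genes in its bin of naive strength, and Cdkn1b had 0.679, at percentile 6.09. Ttk had 0.59, at percentile 3.83, and Mcm3 0.634, at percentile 8.1. At the other end Cdc6 had 2 times its naive tags, at the 99.8th percentile of its bin, Pcna 1.55 times, at the 99th, and Cdc25a 1.5 times, at the 92nd. Top2a and Cdk4, at 1.89 and 1.82 times, came from weak naive peaks and stood at the 82.9th and 78.3rd percentiles of theirs. At equal depth the ratio was 0.839 for Cdc6, with an exact interval of 0.437 to 1.68, and 0.216 for Cdkn2c, with an interval of 0.113 to 0.399. These intervals cover counting error only, and the genes at the ends were picked for their values.

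Peaks farther than 1000 bp but within 50 kb, assigned to whichever protein-coding gene had the closest end, added 13 peaks at day 15, 4 at day 30 and 16 in the naive list. They were the only peaks of Ccnd2, Ccnd3, Cdk6 and Cdkn1a, which were without a boundary peak. Cdk6 had 3 such peaks at day 15, 0 at day 30 and 5 in the naive list. Of the day 15 peaks, the one at chr5:3344016-3344284 is the peak by the listed start site given above. Those at chr5:3491265-3491583 and chr5:3502561-3503002 lay deep inside the gene with 19 and 22 tags, and the naive list had a peak at each of these places with 20 and 21 tags. Ccnd2 had 2 peaks at day 15, 0 at day 30 and 2 in the naive list, and the one at chr6:127143189-127143526, with 23 tags at day 15 and 24 in the naive list, was common to both.

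Cdkn1a, which encodes the p53 target p21, had 3 peaks at day 15, 0 at day 30 and 2 in the naive list. The peak 11.8 kb from the gene had 22 tags at day 15 and 13 in the naive list, and the peak 20.1 kb away had 23 and 9. Another peak, inside the gene, had 20 tags at day 15 only. Scaled to the naive depth, these day 15 values were 9.23, 9.65 and 8.39 tags. Ccne1 kept a peak about 12.6 kb from the gene, with 25 tags at day 15, 15 at day 30 and 22 in the naive list. Cdkn1b likewise kept one 3 kb away at day 15 and 2.8 kb away in the other lists, with 20 tags at day 15, 18 at day 30 and 26 in the naive list. Mki67 had no boundary peak at day 30 but had 2 peaks about 19 kb away, with 14 and 13 tags, where 1 peak had 16 tags at day 15 and 22 in the naive list. Ccnd3 had 1 naive peak inside the gene with 13 tags. The other 12 genes without a boundary peak had no assigned peak in any list, since the start site peaks of Orc1 and Orc4 were closer to the end of another gene.

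A wider list held 97 other cell cycle genes, of which 68 had a boundary peak at day 15, 32 at day 30 and 77 in the naive list. In the same lists 29.6%, 12.8% and 34.7% of all protein-coding genes had one. At day 15, 65 of these 77 stayed called, beside 64.4 expected from their naive strength, 12 were lost, and 3 of the 20 others were gained. Of all genes with a naive peak 20.4% were lost, and of those without one 3.04% were gained. At day 30, 32 were kept, where 31.9 were expected. The kept counts thus lay within 1 gene of the expected ones. Their tag ratio to the naive list had a median of 1.05 over 65 genes at day 15 and 0.56 over 32 at day 30.

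Among DREAM, pocket protein and other E2F family genes, 9 of 14 were called at day 15, 3 at day 30 and 10 in the naive list. Tfdp2, an E2F partner, had 24, 14 and 25 tags in the day 15, day 30 and naive lists. The DREAM subunit genes Lin37 and Lin52 had 26, 15 and 24 tags and 45, 22 and 45 tags, at a peak also near Aldh6a1. Rbl2, the p130 pocket protein of resting cells, and E2f6 were lost at day 15 and had 12 and 9 naive tags, and Tfdp1 was gained with 17 tags. Of 16 further regulators of cyclin-dependent kinases, 11 were called at day 15, 8 at day 30 and 13 in the naive list. Wee1, a kinase that holds Cdk1 inactive, had 38, 23 and 32 tags, and Ccnh had 18, 17 and 20. Cdkn2d had 42, 28 and 55, where the day 30 value is at a peak nearer to Kri1. Cdkn2a and Cdc25b were lost at day 15 and had 10 and 9 naive tags.

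Of 35 other licensing, helicase and polymerase genes, 22 were called at day 15, 8 at day 30 and 25 in the naive list. Cdt1, which loads the helicase with Cdc6, had 26 tags at day 15, 17 at day 30 and 20 in the naive list. The helicase cofactor genes Gins2 and Gins4 both had 40 tags at day 15 and 46 in the naive list, with 20 and 18 at day 30. Pola1, Prim2 and Pold2, for polymerase and primase subunits, were lost at day 15 and had 21, 14 and 13 naive tags, and Gins1 and Rfc4 were gained with 14 and 19 tags. Of 32 other mitotic genes, 26 were called at day 15, 13 at day 30 and 29 in the naive list. The checkpoint gene Mad2l1 had 50, 31 and 67 tags in the day 15, day 30 and naive lists, Bub3 had 17, 16 and 22, and the kinetochore gene Cenpf had 32, 21 and 39. Anapc1, Anapc2 and Cdc16, for subunits of the anaphase-promoting complex, were lost at day 15 and had 10, 10 and 8 naive tags. Anapc4, Anapc5, Cdc23 and Cdc27, for other subunits of this complex, were kept at day 15 with 36, 18, 14 and 19 tags.

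**Figure D5:**
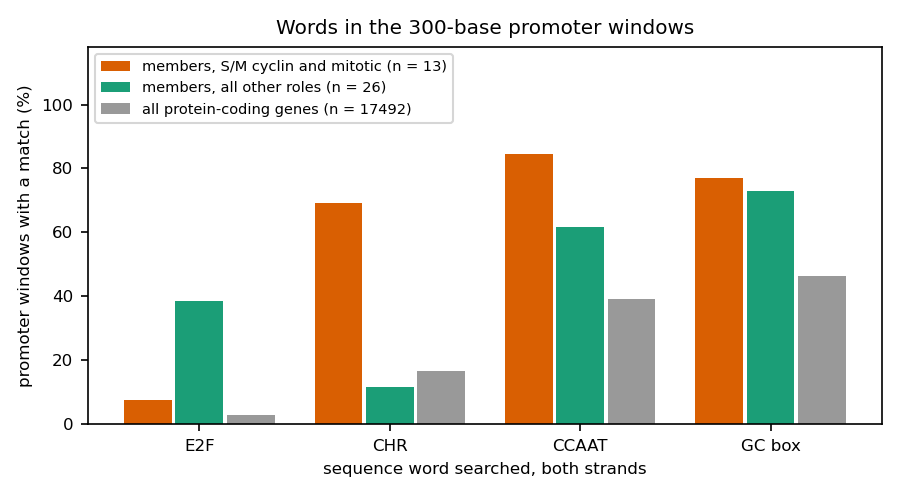
Share of 300-base promoter windows with at least 1 match, on either strand, to the E2F, CHR, CCAAT and GC box words, for 13 promoters of S and M phase cyclins, Cdk1 and mitotic genes, 26 promoters of the other roles and 17492 promoters of protein-coding genes. CHR words are in 69.2%, 11.5% and 16.5% of them, and E2F words in 7.69%, 38.5% and 2.92%.

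By role, the promoters differed most in their counts of E2F and CHR words, and little in GC boxes. RefSeq windows were matched for 39 of the 48 genes, all but Ccnd1, Ccnd2, Ccne2, Rb1, E2f4, Gmnn, Mcm4, Ccna2 and Aurkb, and the first listed window was used for the 8 genes with several. The E2F words were found in 10 of 26 promoters of the G1, kinase inhibitor, E2F, licensing and fork roles. These 10 included Cdc25a, E2f3, Cdc6, Mcm3, Mcm5 and Mcm7. Among 13 promoters of the S and M phase cyclins, Cdk1 and mitotic genes, E2F words were in 1, Cdk1. They were in 2.92% of 17492 protein-coding promoters. The CHR word was found in 3 of 26 and in 9 of 13, in these 13 at Cdk1, Ttk, Aurka, Top2a, Mki67, Bub1b, Ccnb2, Plk1 and Cdc20, and in 16.5% of all promoters. CCAAT boxes were in 16 of 26 and 11 of 13, beside 39.0% of all. GC boxes were in 19 of 26 and 10 of 13, beside 46.3% of all. They were in 68.3% of promoters of all genes with a boundary peak in any list. The CRE word TGACGTCA was in 1 of the 39, Mcm5, beside 2.34%. Matches of different elements overlapped at 1 place, an E2F word and a CCAAT box of Mcm7.

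The promoter windows of Birc5 and Bub1b, gained at day 15, shared none of these elements: Birc5 had GC boxes, and Bub1b a CHR word and a CCAAT box. The day 15 peak of Birc5 overlapped its window. That of Bub1b, with its summit at -420 bp, did not. Mcm3 and Ttk, lost at day 30 despite strong naive peaks, both had CCAAT and GC boxes, with E2F words in Mcm3 and a CHR word in Ttk.

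Where each list was cut to its 3352 strongest peaks, the set had 15 genes with a boundary peak at day 15, 12 at day 30 and 16 in the naive list. Of all 21887 genes, 2850 had one at day 15, 2804 at day 30 and 2796 in the naive list. Against the naive list, 13 of 16 were kept at day 15, with Cdkn1b, Cdkn2c and Ccnb1 lost and Cdc25a and Cdc6 gained, beside 76.4% kept over all genes. At day 30, 11 of 16 were kept, with Mcm3, Rrm1, Ccnb1, Ttk and G2e3 lost and Cdc45 gained, beside 67.9%. Lists of equal length hold gains and losses close together by construction, and no gained share over all genes is given for them. Ccnb1 was missing from both tumour lists by either count, and Mcm3 and Ttk from day 30.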

How the data were processed

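ATAC-seq was run on 11 samples of sorted alveolar macrophages in 3 groups. The submitters' processing notes name Bowtie2 (2.3.4.1), MACS2 (2.1.1) and the mm10 build. Settings, read filters, the transposase shift and any pooling of samples are not given in the sources used here. Triplicates are stated for the series, where the labels number 4, 3 and 4 samples for day 15, day 30 and naive. Per the labels each group has 1 peak list.

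For each peak the deposited lists, which have no headers, hold a score, the fold (ratio) of its summit to local background, its p-value and q-value on a −log10 scale and its summit position. These are the authors' values, and their meaning was read from the values. The whole-number summit pileup was recovered as the count whose upper Poisson tail gives the p, with the fold as pileup plus 1 over background plus 1, within 0.001 on the −log10 scale in every peak. The lowest common background gave the depth, taking tags of 200 bp. Recovery and expected counts were tested on simulated data.

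A gene was kept, lost or gained by boundary peaks in 2 lists. These are calls, not amounts. Expected counts apply the kept share of each of 5 bins of naive −log10 p (column 8) to the genes, and are a description. Python 3.11.15, pandas 2.3.3 and scipy 1.17.1 were used. The genes and lists were chosen with earlier results of these data known. Named were all genes of the set with a peak and, for the wider list, up to 3 per role that were kept, lost or gained, in list order. Anapc4, Anapc5, Cdc23 and Cdc27 were named outside this rule, beside the lost genes of their complex. Promoters printed were the first 3 kept and the first 3 lost with a peak over the window, the gained one, and Cdk1 and Top2a.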

Additional observations from a re-analysis of the deposited data

How the results depend on the processing

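Of 125 values under the alternatives, all but 7 were within 1.5 times the reported one. Those 7 came from taking the 3352 strongest peaks of each list, which shortens the day 15 and naive lists: 15 genes had a boundary peak at day 15 and 16 in the naive list, 13 were kept at day 15, 5 were lost and 1 gained at day 30 against naive, and 6 were lost and 3 gained at day 30 against day 15. Counting a peak only where the gene was nearest gave 24 kept at day 15 and 11 at day 30, without Cdc45, and without G2e3 at day 15. Windows of 500 and 2000 bp gave 24 and 27 kept at day 15, and 11 and 13 at day 30. Requiring peaks to overlap left 26 kept at day 15, 12 at day 30 and 11 between day 15 and day 30, where Gmnn dropped out. Counting listed start sites beside the gene ends, added after seeing the data, gave 29 of 33 kept at day 15 and 13 at day 30. Over all genes 79.8% and 36.4% were kept by this measure. The 5′ end alone, for genes with a known strand, gave 21 and 9. Other strength bins gave 25.2 to 25.5 and 12.8 to 13.7 expected kept genes. No paired analysis was possible because each group has 1 peak list, and for the same reason no sample could be left out in turn. Pileups of about 20 tags carry wide counting intervals, as at Ccnb1.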
